A study of Homo sapiens with 6 samples.

Results

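The 4 mature miRNAs described here are hsa-miR-483-3p and hsa-miR-483-5p, which are cut from a precursor inside IGF2, and hsa-miR-675-3p and hsa-miR-675-5p, which are cut from a precursor inside H19. They were found by name among the 2588 mature human miRNAs of the expression table, and all 4 were listed. The libraries came from Huh7 cells, a human hepatoma cell line, collected 48 h after Lipofectamine 2000 carried in a PLC5-CIR plasmid with hsa_circ_0098181 (overexpression, 3 samples) or the control plasmid (control, 3 samples). Both groups were therefore transfected, the overexpression was transient and only a single cell line was used. The labels do not say whether the 3 samples of a group were separate cultures, so that the p-values measure the spread between these samples, which may be technical.

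IGF2 and H19 are neighbouring imprinted genes. In most fetal tissues IGF2, a growth factor, is transcribed from the paternal copy, and H19, a long non-coding RNA, from the maternal copy, under the control of a shared imprinting centre and enhancers. Each host gives rise to a miRNA precursor, from which Dicer releases a 5p and a 3p arm that can be loaded into Argonaute. miR-483 has been studied as an oncogenic product of the IGF2 gene, and miR-675 as a product of H19 that restrains growth in the placenta.

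In RefSeq (GRCh38.p14), MIR675 lies on chromosome 11 from 1996759 to 1996831 and MIR483 on the same chromosome from 2134134 to 2134209, with 137302 bases between them. H19 spans 1995176 to 2001266 and IGF2 spans 2129117 to 2149566. In GENCODE release 29 (GRCh38) these genes are all on the minus strand. There, MIR483 was inside an intron of 9 of the 11 annotated IGF2 transcripts, and the other 2 did not reach it. MIR675 was contained in exon 1 of 4 of the 12 H19 transcripts and in an intron of 1, and the other 7 did not contain it. The submitters' processing notes name hg38, the same assembly, but the table itself holds names and no positions.

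RefSeq mature sequences were matched for 2 of the 4 members, both of them arms of miR-675. They are shown, with the seed (bases 2 to 8) in capitals, because the seed decides which other miRNA could act on the same targets. The third sequence belongs to hsa-miR-4466, from chromosome 6, which was the only other listed miRNA with a RefSeq sequence that shares either seed.
hsa-miR-675-5p: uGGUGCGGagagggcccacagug
hsa-miR-675-3p: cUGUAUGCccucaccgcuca
hsa-miR-4466: gGGUGCGGgccggcgggg
The 5p arm (1996800 to 1996822) has 23 bases, of which 69.6% are G or C, and the 3p arm (1996768 to 1996787) has 20 bases, of which 60% are G or C. The median over the 2281 listed miRNAs with a RefSeq sequence was 52.2% at 22 bases. hsa-miR-4466 had 0 counts in all 6 libraries, so that no miRNA found to share the seed of miR-675-5p was present at more than single counts, and no other listed miRNA with a RefSeq sequence shared the seed of miR-675-3p.

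The libraries held 7144798 to 10786295 counts (median 8379124) and between 990 and 1074 miRNAs with a count. Levels are given as TPM, the deposited value, which here equals the count scaled to the library total (CPM). It has no length correction, and a read covers a whole mature miRNA, so that levels of different miRNAs are set side by side on this scale. Whether different miRNAs enter a library equally well was not tested, so that ranks, shares and ratios between miRNAs are those of counts. Of the 5 hepatocyte markers, none was without counts, and their summed level was 346895 to 384138 TPM. Most of it was miR-122-5p, at 330931 ± 8953 TPM with hsa_circ_0098181 and 313152 ± 10239 TPM with the control plasmid (SD, n = 3). The 5 markers of blood cells summed to 13.3 to 14.3 TPM with hsa_circ_0098181 and 17.0 to 19.1 TPM in the controls, which did not overlap. Among all single miRNAs tested, the groups did not overlap in TPM for 101 of 552 (18.3%). Of the 3 blood markers tested, miR-142-3p was estimated lower (log2 fold change -0.50), and miR-150-5p (0.46) and miR-223-3p (0.45) higher. The endothelial pair miR-126-3p and miR-126-5p summed to 3811 to 4341 TPM over all libraries. The lists for muscle (1.45 to 2.24 TPM) and neurons (98.6 to 149 TPM) overlapped between the groups. That for mesenchymal cells overlapped only narrowly, at 114.7 to 122.8 TPM with hsa_circ_0098181 and 122.7 to 132.4 TPM in the controls. None of the markers in these lists was without counts. All libraries came from Huh7 cells, so that these lists show the level of each marker set in that line, and a mix of cell types was not tested. Control replicate 3 stood apart, with a median absolute log2 difference of 0.23 and 0.21 from control replicates 1 and 2 over 291 abundant miRNAs, against 0.072 between replicates 1 and 2 themselves. Results without it are given below for the fold changes and the arm ratio of miR-483, the number of miRNAs called and the TPM difference of miR-675-5p. The other values include it.

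The miRNAs of the 2 hosts were found at very different levels. Over the 6 libraries, miR-483 was counted 43831 times and miR-675 only 3 times. The ratio was 14610, with a 95% Poisson interval of 4999 to 70847 that covers the counting error of miR-675 only. Of the other miRNAs whose precursors lie within 1000000 bases of MIR675, those of MIR6744, MIR4298, MIR7847 and MIR4686 were listed, and each of their 5 products had 0 counts in every library. The arms of miR-483 were thus the only mature products of this stretch that were counted more than 1 time in any library.

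The more abundant arm was hsa-miR-483-3p. With hsa_circ_0098181 its counts were 5632, 5308 and 7429, and with the control plasmid they were 8181, 6587 and 5764, in the order of the replicate numbers. Scaled to the libraries, the levels were 706, 627 and 896 TPM with hsa_circ_0098181 and 758, 759 and 807 TPM with the control plasmid. The control samples were close together, and the overexpression samples lay on both sides of them, with replicates 1 and 2 below all controls and replicate 3 above all of them.

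Among the miRNAs with a count, miR-483-3p had rank 64 to 77 in the libraries and rank 72 by its mean of 759 TPM, below miR-30e-5p (776 TPM) and miR-1269b (825 TPM) and above miR-29c-3p (756 TPM) and miR-339-5p (751 TPM). These 4 neighbours differed from it by less than its SD over the 6 samples, 91.0 TPM. miR-122-5p, the most abundant miRNA, was 424 times as high.

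The mean of miR-483-3p was 743 ± 139 TPM with hsa_circ_0098181 and 775 ± 27.7 TPM with the control plasmid (SD, n = 3). The groups differed by -31.8 TPM, well within the spread of the overexpression samples (p = 0.8 in an exact two-sided permutation test, whose smallest possible p is 0.1 in this design). With TMM factors, which correct for the composition of the libraries, the level was 772 ± 135 CPM and 744 ± 9.84 CPM (SD, n = 3). On this scale the log2 fold change was 0.053 with a standard error of 0.12, and its 95% interval ran from -0.19 to 0.30 (edgeR quasi-likelihood test, adjusted p = 0.865). On the linear scale this interval ran from 0.874-fold to 1.23-fold of the control. The sign was not stable, since the log2 fold change was -0.060 with the library size alone, a scaling that moved the median of all tested miRNAs from 0.0038 to -0.11. It was -0.090 without overexpression replicate 3 and 0.032 without control replicate 3, and the adjusted p from edgeR in these 3 fits was 0.858, 0.843 and 0.873.

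In TPM, the replicates of miR-483-3p differed by more than the counting error in both groups. The coefficient of variation of its TPM was 18.6% in the overexpression group, where counting alone gives 1.29%, and 3.57% in the control group, where it gives 1.22%. With TMM factors the controls stood at 744 ± 9.84 CPM (SD, n = 3), so that little of their excess over the counting error was left. The pooled SD within the groups was 0.17 on the log2 scale of the TMM-scaled CPM, and it joins a narrow control group with a wide overexpression group. The median over the 552 miRNAs tested, which include many at low levels, was 0.19. In TPM, the SD of miR-483-3p over the 6 samples, 91.0, was above those of all its neighbours by mean level, 40.7 to 70.2.

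The other arm, hsa-miR-483-5p, had 791, 605 and 710 counts with hsa_circ_0098181 and 1242, 790 and 792 counts with the control plasmid, again by replicate number. Its level was 99.1, 71.4 and 85.7 TPM with hsa_circ_0098181 and 115, 91.0 and 111 TPM with the control plasmid. The groups overlapped, because control replicate 2 lay below overexpression replicate 1. By its mean of 95.5 TPM it had rank 155, between miR-191-3p (98.1 TPM) and miR-651-5p (95.3 TPM), with miR-3144-3p (99.1 TPM) and miR-4719 (89.7 TPM) next to them. All 4 were within its SD of 16.3 TPM over the 6 samples.

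The mean of miR-483-5p was 85.4 ± 13.9 TPM with hsa_circ_0098181 and 106 ± 12.9 TPM with the control plasmid (SD, n = 3), which is lower by 20.3 TPM (p = 0.2, exact two-sided permutation test). With TMM factors it was 88.6 ± 11.0 CPM and 102 ± 13.2 CPM (SD, n = 3), and the log2 fold change was -0.20 with a standard error of 0.13 and a 95% interval from -0.48 to 0.079 (edgeR, adjusted p = 0.617). On the linear scale the interval ran from 0.719-fold to 1.06-fold. The estimate was below 0 in all 14 fits made, from -0.31 with the library size alone to -0.11 without control replicate 1, and the adjusted p was between 0.241 and 0.934. The value of 0.241, from edgeR, was that without control replicate 3, where the log2 fold change was -0.21 and 56 of 565 miRNAs (9.91%) had an adjusted p under 0.05. Neither arm of miR-483 was among those 56.

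Neither of the 2 members tested had an adjusted p under 0.05 with all 6 samples, and neither did any other miRNA (0 of 552, 0%). At an unadjusted p under 0.05 edgeR gave 50 miRNAs (9.06%), of which miR-483 was not part. With the library size alone, 70 of 552 (12.7%) passed unadjusted, and miR-483-5p was among them, with an unadjusted p of 0.041 from edgeR and a 95% interval from -0.60 to -0.014 around its log2 fold change, under the scaling that moved the median of all miRNAs to -0.11. With all 6 samples, DESeq2 gave 0 miRNAs at an adjusted p under 0.05. The calls that other settings added, 3 of 552 with the library size alone (0.543%) and 6 of 1366 without the filter (0.439%), did not include miR-483. In TPM, the groups did not overlap for 101 of the 552 miRNAs (18.3%), and both arms of miR-483 overlapped.

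**Figure D1:**
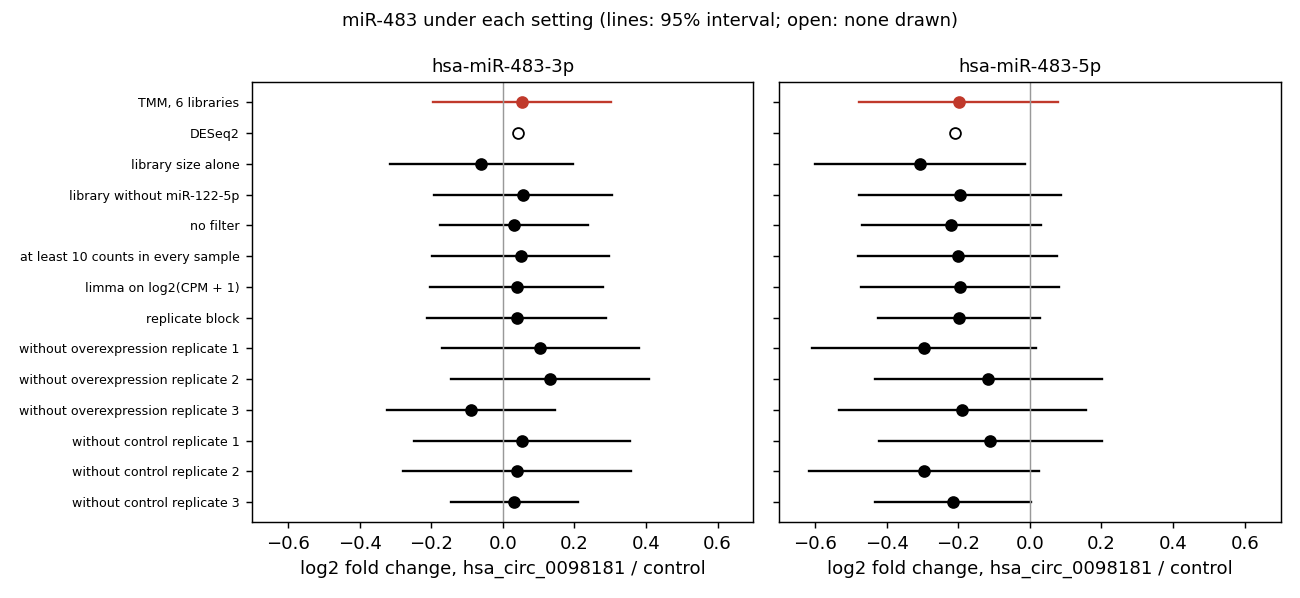
Log2 fold change of miR-483-3p and miR-483-5p, overexpression over control, in each of 14 fits, with the main fit (TMM factors, 6 libraries) in red. Lines are 95% intervals, except for DESeq2, which is an open point without an interval. The points of miR-483-3p lay on both sides of 0, from -0.090 to 0.13, and those of miR-483-5p were all below 0.

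Both arms come from the same precursor, and their ratio is free of the library size because both are counted in the same library. The 3p arm took 87.7%, 89.8% and 91.3% of the miR-483 counts with hsa_circ_0098181 and 86.8%, 89.3% and 87.9% with the control plasmid, by replicate number. The Wilson 95% intervals, which cover counting error only, were 86.9% to 88.5%, 89.0% to 90.5% and 90.6% to 91.9% in the overexpression group and 86.1% to 87.5%, 88.6% to 90.0% and 87.1% to 88.7% in the control group. The intervals of the overexpression samples did not overlap each other. Those of control replicates 1 and 2 did not overlap either, and that of control replicate 3 overlapped both. The lowest of the overexpression samples was below 2 of the 3 controls.

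The log2 ratio of miR-483-3p to miR-483-5p was 3.12 ± 0.28 with hsa_circ_0098181 and 2.88 ± 0.17 with the control plasmid (SD, n = 3). The ratio was higher by 0.24 with hsa_circ_0098181, about the size of the pooled SD within the groups, 0.23 (p = 0.3, exact two-sided permutation test), and the groups overlapped. Leaving out single samples gave 0.10 to 0.38, with the lowest value without overexpression replicate 3, the highest without overexpression replicate 1, and 0.23 without control replicate 3. Across the 6 libraries, the arms did not follow each other closely, with a Pearson r of 0.057 between their log2 levels, which share library and depth.

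**Figure D2:**
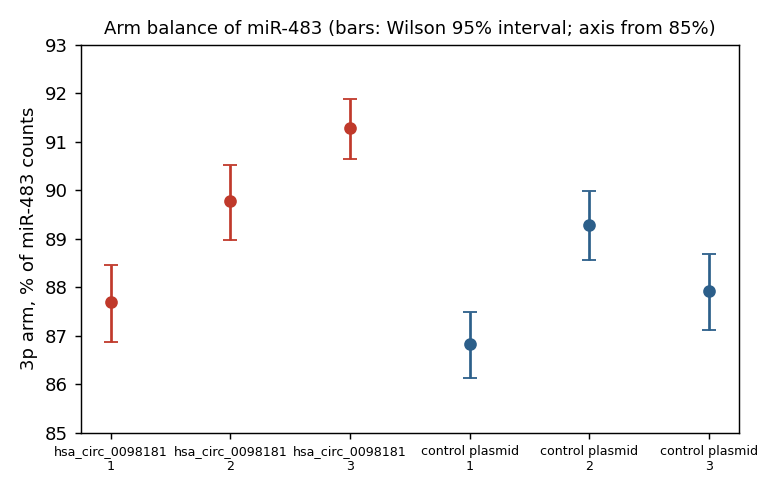
Share of the 3p arm in the miR-483 counts of each library, in %, with Wilson 95% intervals; the axis runs from 85% to 93%. The overexpression libraries ranged from 87.7% to 91.3% and the control libraries from 86.8% to 89.3%, so that the groups overlapped.

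Among the 135 miRNAs of which both arms were tested, the 3p arm held over 50% of the counts in 55, and the median share was 28.3%. With 88.8% over all libraries, miR-483 was above 79.3% of these pairs, and 27 had a still higher share of the 3p arm. A larger absolute change of the ratio than that of miR-483 was found in 55 of the 135 pairs. The groups did not overlap in this ratio for 26 of the 135 pairs (19.3%), and miR-483 was not one of them.

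**Figure D3:**
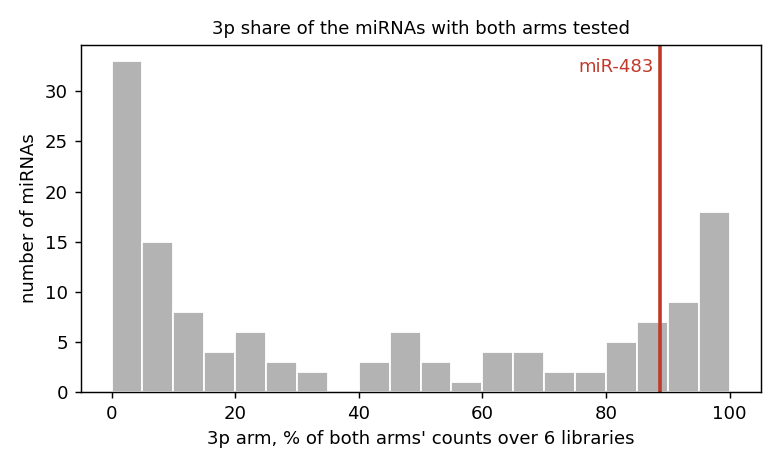
Number of miRNAs, of the 135 with both arms tested and named alike but for 3p or 5p, by the share of the 3p arm in the counts of both arms over 6 libraries, in bins of 5%. The red line marks miR-483 at 88.8%, on the side of the 55 miRNAs in which the 3p arm held over 50%.

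miR-675 was hardly detected. hsa-miR-675-3p was counted 1 time in overexpression replicate 1 and 0 times in the other 5 libraries. hsa-miR-675-5p was counted 1 time in overexpression replicate 1 and 1 time in control replicate 1 and had 0 counts in the other 4 libraries. Of the 3 counts, 2 fell in an overexpression and 1 in a control library, and the remaining 4 libraries had neither arm.

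A single count was worth 0.125 TPM in overexpression replicate 1 and 0.0927 TPM in control replicate 1. Where there was no count, a level of up to 0.354 TPM (overexpression replicate 2) and 0.362 TPM (overexpression replicate 3) would be allowed by the limit of 3 counts, and of up to 0.346 and 0.420 TPM in control replicates 2 and 3. Pooled over all 6 libraries, the level was 0.0195 TPM for miR-675-3p (95% Poisson interval 0.00049 to 0.109) and 0.0390 TPM for miR-675-5p (0.0047 to 0.141). Both upper limits were below the level of 3 counts in any single library.

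These counts were too few for the filter on low counts, and both groups were under the limit of 3 counts, so that no fold change is given. The TPM of miR-675-3p differed by 0.0418 and that of miR-675-5p by 0.0109 between the group means (p = 1 for each, exact two-sided permutation test). For miR-675-3p this p was fixed in advance, because with a single count every split gives the same absolute difference. The counts of miR-675-5p fell in different groups, which gives the smallest difference of any split. Neither p is therefore informative, and at this depth a change that stays under the level of 3 counts per library could not be seen. miR-675 was not unusual in this. Of the 2588 miRNAs listed, 1222 had no count, 314 were counted only 1 to 3 times in total, and 174 of the latter a single time. By mean TPM, miR-675-3p shared its place with miRNAs such as miR-6738-3p and miR-6765-3p, and miR-675-5p with miR-5003-3p and miR-515-5p. The log2 ratio of its arms, 0 in 5 libraries and -1.58 in control replicate 1 with 0.5 added to each count, was fixed by that single count.

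The balance of the hosts' miRNAs was also compared between the groups. The summed arms of miR-483 were counted 6423, 5913 and 8139 times with hsa_circ_0098181 and 9423, 7377 and 6556 times with the control plasmid, and the summed arms of miR-675 2, 0 and 0 times and 1, 0 and 0 times. In the 4 libraries without miR-675, miR-483 was at least 1971-fold higher (overexpression replicate 2), 2713-fold higher (overexpression replicate 3), 2459-fold higher (control replicate 2) and 2185-fold higher (control replicate 3), set against a limit of 3 counts per library. With 0.5 added to each sum, the log2 ratio was 12.95 ± 1.42 with hsa_circ_0098181 and 13.38 ± 0.67 with the control plasmid (SD, n = 3). The change of -0.43 (p = 0.7, exact two-sided permutation test) rested on the single counts of miR-675 and became 0.38 without overexpression replicate 1.

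Other imprinted genes also host miRNAs, and 31 of their mature products were looked up. The MEST-hosted miR-335 was the only one of these with a level in the range of miR-483. miR-335-5p had 1335 ± 109 TPM with hsa_circ_0098181 and 1273 ± 102 TPM with the control plasmid (SD, n = 3), with a log2 fold change of 0.18 (adjusted p = 0.598 from edgeR), and miR-335-3p had 115 ± 13.1 TPM and 115 ± 10.3 TPM (SD, n = 3). Here the 5p arm was the more abundant, the opposite of miR-483. From the GNAS locus, miR-296-5p and miR-296-3p had means of 1.13 and 0.663 TPM, and miR-298 had no count. The 26 products of the DLK1-DIO3 domain that were looked up summed to 16.4 TPM, with miR-127-3p highest at 5.87 TPM. Of the 31 miRNAs, 23 had a count, 6 were tested, 3 of these were estimated higher and 3 lower, and edgeR called 0 of them, at an adjusted as well as at an unadjusted p under 0.05. The median log2 fold change of the 6 was 0.013, against 0.0038 over the 552 miRNAs tested. DESeq2 also called 0 of all miRNAs.

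The tested miRNAs whose log2 level was most like that of miR-483-3p over the 6 libraries were miR-449b-5p (Pearson r = 0.93), miR-365b-3p (0.90) and miR-491-3p (0.89), with means of 2.07, 228 and 6.94 TPM. Those most like miR-483-5p were miR-3944-3p (0.95), miR-652-5p (0.93) and miR-592 (0.93), with means of 1.18, 2.58 and 1.35 TPM. These are the highest values among all tested miRNAs over 6 points that share library and depth, and they are given as a description. No miRNA was on both lists.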

How the data were processed

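Small RNA of 6 Huh7 samples was sequenced. The authors deposited counts, which are reads assigned to each mature miRNA without normalization, and TPM, which was within 0.00303 of the CPM recomputed from the counts. The submitters' processing notes list TopHat2 2.0.9, Bowtie and hg38. Which miRNA annotation was used, how many mismatches were tolerated and how multiply matching reads were counted is not given in the sources used here, and other choices would change such counts.

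Samples were grouped by title. The main test was edgeR 4.0.16 in R 4.3.3 (filterByExpr with a minimum count of 10 and a minimum total of 15, TMM, quasi-likelihood test, group as the only term, two-sided, Benjamini-Hochberg over the 552 miRNAs kept, threshold 0.05). These held 99.98% of the counts. Ratios and the TPM of miRNAs below the filter were compared by exact permutation. Alternatives were DESeq2 1.42.0, limma 3.58.1 on log2(CPM + 1), other scalings and filters, a replicate block and each sample left out. On simulated data with 200 changed miRNAs, 95.9% of 194 changed 2-fold and 72.7% of 194 changed 1.5-fold were called, with 15 and 7 false calls. The simulated counts were independent, with many changed miRNAs and no library standing apart like control replicate 3. Recovery in the real data may therefore be lower.

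The miRNAs named were the members, the fixed list of other imprinted miRNAs (the most abundant and, chosen after their values were seen, the GNAS products and miR-127-3p), those sharing a seed, those near MIR675, the 2 above and below each member by TPM (ties for miR-675) and the 3 most like each tested member. Members and lists were chosen with earlier results of these data known. No molecular identifiers are named, so that intervals and limits on counts cover counting error only.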

Additional observations from a re-analysis of the deposited data

How the results depend on the processing

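The log2 fold change of miR-483-3p, 0.053, reversed with the library size alone (-0.060) and ranged from -0.090 to 0.13 with a sample left out. That of miR-483-5p, -0.20, kept its sign under all 13 alternatives, from -0.30 to -0.11 with a sample left out. Neither arm came under the threshold in any fit. With TMM factors, the filter on low counts and all 6 samples, 0 miRNAs passed an adjusted p of 0.05 in the main edgeR fit. There were 3 under scaling by library size only, 6 without a filter and from 0 to 56 with a sample left out, with 56 without control replicate 3. The cause was not tested. The TPM difference ranged from 0 to 0.0626 for miR-675-3p and from -0.0309 to 0.0418 for miR-675-5p with a sample left out, and it reversed for miR-675-5p without overexpression replicate 1 (-0.0309), control replicate 2 (-0.0046) or control replicate 3 (-0.0046). The difference of the miR-675 arm ratio, 0.53, ranged from 0 to 0.79, and that of the ratio of summed miR-483 to miR-675, -0.43, from -0.95 to 0.38. These changes follow from 3 counts, and no fold change of miR-675 was computed under any alternative but the fit without a filter, which is not given because both groups were under the limit of 3 counts. The difference of the miR-483 arm ratio, 0.24, was 0.23 with 5 counts added and 0.10 to 0.38 with a sample left out.

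Pairing by replicate number was not borne out, with correlations of -0.16, 0.20 and 0.16 between the deviations of samples numbered 1 to 3 over 291 miRNAs. With the replicate block, the log2 fold changes were 0.039 for miR-483-3p and -0.20 for miR-483-5p, 0 miRNAs had an adjusted p under 0.05 (42 unadjusted), and the difference of the miR-483 arm ratio stayed at 0.24.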
